A study of Homo sapiens with 15 samples.

Results

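The extract from Sicily (SE) was compared directly with the extract from Tuscany (TE), both given to HCT116 cells at the same mass dose of 0.0154 mg/mL for 72 h. The 3 SE and the 3 TE libraries were 6 of the 15 RNA libraries of the series, and 14899 of 60664 genes were tested, namely those with at least 1 TPM, a unit that scales each library to the same total of transcripts corrected for their length, in at least 3 of the 15 libraries. HCT116 is an established human colorectal carcinoma line of epithelial origin, labelled wild type, and cells without treatment, also in 3 libraries, give the level beside which each difference is read. Both extracts are freeze-dried waste products of olive oil production (OPWPs) enriched in the phenol hydroxytyrosol (HTyr) and taken up in water, and they differ in their place of production. The other libraries hold an extract from Apulia, and HTyr alone, and enter here through the filter on low values and the shared estimate of the spread. The sources used here do not state how much HTyr or any other compound each of them holds, so a difference between SE and TE at the same mass cannot be told apart from a difference in the dose of any single compound.

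The sample titles carry short codes that conflict with the place names beside them. Libraries were assigned by their descriptions (SE and TE), which match the columns of the deposited table. For each library all 1539 genes compared with the column of that name in the study's supplementary table lay within 0.005 TPM, and at most 21 did with a column of another library. If the codes in the titles were right instead, the sign of every difference between SE and TE given here would turn, with sizes and calls as they are. TPM keep no sequencing depth, and the depth behind each value is unknown. The libraries held 13773 to 13951 genes with at least 1 TPM. Rank correlation across genes, which are not independent of each other, was 0.9774 to 0.9807 among the SE libraries, 0.9742 to 0.9824 among the TE libraries and 0.9592 to 0.9721 between them. All 8 epithelial markers were present in every group, with summed levels of 2531 to 2693 TPM with SE, 3149 to 3253 with TE and 4647 to 4741 without treatment, while the leukocyte, fibroblast and endothelial lists summed to at most 6.26, 7.78 and 0.52 TPM in any SE or TE library. The pan-leukocyte gene PTPRC was at 0 in all of these libraries, and the 6 neuron or glia markers summed to 16.8 to 17.3 TPM with SE, 19.7 to 21.4 with TE and 34.6 to 35.7 without treatment.

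Plant phenols meet several sensors in an epithelial cell. The aryl hydrocarbon receptor (AhR) is a transcription factor that is switched on by flat aromatic ligands and raises the cytochrome P450 enzymes that oxidise them, and NRF2 is released by electrophiles and oxidants and raises enzymes of glutathione, NADPH and quinone metabolism. Misfolded protein in the cytosol is answered by heat shock factors and in the endoplasmic reticulum (ER) by ATF6, IRE1 and PERK, and ATF4 is made when PERK or a lack of amino acids slows translation and raises amino acid synthesis, tRNA charging and the stress genes DDIT3 and TRIB3.

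In the direct comparison 1246 genes (8.36%) passed both thresholds in limma, an adjusted p below 0.05 and a change of more than 1.5 times in either direction, 700 of them (4.7%) higher and 546 (3.66%) lower with SE than with TE. The balance of the directions moved with the scaling of the libraries and with the removal of trends. After median-ratio scaling 510 were higher and 667 lower. These counts were 515 and 626 after quantile normalisation, and 480 and 545 once trends with GC content and length were removed. The 3 SE libraries lay wholly above or wholly below the 3 TE libraries for 6180 genes (41.5%). The median difference over all genes tested was 0.06 on the log2 scale. Every list count given below is to be read beside the shares of all genes, 4.7% higher and 3.66% lower with SE. In the same fit 4168 genes (28%) were called with SE against untreated cells, 2532 (17%) higher and 1636 (11%) lower, and 1896 (12.7%) with TE, 1112 (7.46%) higher and 784 (5.26%) lower. These last 2 comparisons share the untreated libraries, so their values are given side by side and no agreement between them is read. All fold changes are differences of log2(TPM + 0.5), which understate the change of genes at low TPM.

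The largest increase of any named gene was in an AhR target. CYP1A1 (ENSG00000140465, chr15:74719542-74725536 on GRCh38, minus strand), which encodes the cytochrome P450 classically used to read out the receptor, stood at 17.6, 21.8 and 23.5 TPM in the SE libraries, at 1.69, 2.04 and 1.38 TPM in the TE libraries and at 0.39, 0.81 and 0.60 TPM in untreated cells. Every SE library was well above every TE library, and the log2 fold change was 3.29 (standard error 0.17, adjusted p = 4.9e-08). AHRR, the repressor that the receptor induces against itself (ENSG00000063438, chr5:321714-438291, plus strand), stood at 11.6, 13.2 and 11.6 TPM with SE, 2.52, 2.04 and 2.40 TPM with TE and 1.37, 1.94 and 0.07 TPM without treatment, a difference between the extracts of 2.16 (standard error 0.37, adjusted p = 6.8e-04). The untreated libraries of AHRR were widely spread, whereas the SE and TE libraries were tight and far apart.

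The bases before the start of these 2 genes are shown because both carry the core of the xenobiotic response element, GCGTG on either strand, to which the receptor binds. They come from RefSeq on GRCh38.p14 (250 bases up to the start, 5′ to 3′ on the strand of the gene), with the core in capitals.
CYP1A1 (chr15:74725529-74725778, minus strand): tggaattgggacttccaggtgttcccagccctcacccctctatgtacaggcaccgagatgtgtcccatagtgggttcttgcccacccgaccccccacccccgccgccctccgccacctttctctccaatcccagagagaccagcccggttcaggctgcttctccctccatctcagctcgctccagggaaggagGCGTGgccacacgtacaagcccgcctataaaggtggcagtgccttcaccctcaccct
AHRR (chr5:321464-321713, plus strand): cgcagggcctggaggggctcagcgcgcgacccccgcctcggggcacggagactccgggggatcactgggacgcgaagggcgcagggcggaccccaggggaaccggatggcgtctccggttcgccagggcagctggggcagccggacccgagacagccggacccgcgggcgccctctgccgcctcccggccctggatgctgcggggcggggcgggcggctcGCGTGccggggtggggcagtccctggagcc
The core begins 57 bases before the start of CYP1A1 and 30 bases before that of AHRR. In the full windows, which run 50 bases past the start, it was found in 4 of the 4 higher AhR targets that have a window, in the lower member SLC7A5, in 2 of 3 members that were not called, and in 36.3% of all 27305 windows, so the match is a description.

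Of 11 AhR genes tested, 5 were higher and 1 was lower with SE, beside 4.7% and 3.66% of all genes, and their median difference was 0.66 against 0.06 over all genes. The median was 0.40 without the third TE library and 0.36 over the 9 members with a mean of at least 5 TPM, with the same counts but for 4 higher in the latter. The others that were higher were CYP1B1, a P450 of the same family (3.22, 2.96 and 3.19 TPM with SE and 0.69, 0.75 and 0.66 TPM with TE, log2 fold change 1.59, adjusted p = 6.8e-06 in limma), TIPARP, a further repressor of the receptor (72.8, 77.5 and 67.8 against 30.9, 36.9 and 25.1 TPM, 1.23), and NQO1. Untreated cells held 16.8, 22.3 and 19.2 TPM of TIPARP and 0.29, 0.32 and 0.33 TPM of CYP1B1. The receptor AHR itself and its partner ARNT were not called, with differences of 0.36 (95% interval 0.11 to 0.62) and 0.00 (-0.20 to 0.20). ALDH3A1, another classical target, differed by 0.66 but its interval of -0.00 to 1.33 was wide. The member that was lower, SLC7A5, is an amino acid transporter that ATF4 also controls. It stood at 187, 187 and 199.9 TPM with SE against 325, 319 and 341 TPM with TE.

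NQO1, the quinone reductase that AhR and NRF2 both induce, was the most abundant of these genes. Its level was 1396, 1425 and 1396 TPM with SE, 866, 855 and 803 TPM with TE and 327, 328 and 316 TPM in untreated cells, 3 ranges that do not meet, and the difference between the extracts was 0.74 (standard error 0.05, adjusted p = 2.0e-07). Of 29 NRF2 targets 9 were higher and 2 lower with SE, at a median of 0.44. GCLM, the regulatory subunit of the enzyme that starts glutathione synthesis, had 41.3, 51.6 and 50.96 TPM with SE and 25.7, 20.5 and 20.99 TPM with TE (1.08). PIR, an iron-binding nuclear protein under NRF2 control, had 39.4, 45.5 and 42.98 against 21.1, 19.4 and 18.1 TPM, a difference of 1.10 (standard error 0.09, adjusted p = 1.4e-06). The NADPH-making enzyme PGD (0.77), the peroxidase PRDX1 (0.74), glutathione reductase GSR (0.68), heme oxygenase HMOX1 (0.63) and the exporter ABCC2 (0.64) were also higher. Those that were lower were the exporter ABCC3 (-0.86) and SLC3A2 (-0.65), the heavy chain that pairs with SLC7A5. Other classical members were not called, among them SLC7A11 (-0.22, 95% interval -0.42 to -0.01), SRXN1 (-0.11, -0.32 to 0.10) and GCLC (0.22, -0.06 to 0.49). The count of higher members was 6 after median-ratio scaling and 5 after quantile normalisation, and HMOX1 lost its call in both.

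Enzymes that attach groups to phenols showed smaller differences. Of 16 tested, 3 were higher with SE: glutathione transferase GSTP1 (966, 1064 and 1190.1 TPM with SE, 677, 666 and 689 TPM with TE, log2 fold change 0.66), MGST1 (0.67) and the arylamine acetyltransferase NAT1 (0.81). Quantile normalisation left 1 of them, and without SE library 3 GSTP1 no longer passed, at 0.58. None of 5 aldo-keto reductases and none of 7 metallothionein and zinc genes was called in limma, at medians of 0.08 and 0.15 (the latter 0.02 without SE library 2 or SE library 3), with 1 and 2 higher members at an unadjusted p under 0.05. AKR1A1 stood at 132, 139 and 153 TPM with SE and 135, 129 and 139 TPM with TE, overlapping ranges with a difference of 0.08 (95% interval -0.05 to 0.20) that was -0.06 after quantile normalisation. MT2A, the main metallothionein here, stood at 826, 1034 and 1149 TPM against 1176, 928 and 1217 TPM, also overlapping.

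Of 30 heat shock genes tested, a list that also holds the mitochondrial pair HSPD1 and HSPE1, 14 were higher and none was lower, at a median of 0.57; against untreated cells the median was 0.78 with SE and 0.28 with TE. HSPE1, the co-chaperonin of the mitochondrial matrix, stood at 1195, 1145 and 1098 TPM with SE, 505, 520.4 and 477 TPM with TE and 345, 351 and 351 TPM without treatment, a difference between the extracts of 1.19 (standard error 0.07, adjusted p = 7.7e-08). HSP90AA1, the inducible HSP90, stood at 2089, 2249 and 2106 TPM with SE and 1087, 1066 and 1024 TPM with TE, with 693, 764 and 722 TPM in untreated cells (1.02). In both genes the 3 groups did not overlap and TE lay between the other groups. HSP90AB1 (0.88), the chaperonin HSPD1 (0.89), the constitutive HSC70 gene HSPA8 (0.97) and the HSP70 exchange factor HSPH1 (1.00) were also higher. Among the 16 members that were not called, HSPA1A differed by 0.19 (95% interval -0.30 to 0.68) and HSPA1B by -0.14 (-0.42 to 0.14). DNAJB1 differed by 0.01 (-0.12 to 0.14) and BAG3 by 0.07 (-0.11 to 0.25), also not called. HSPA1A and HSPA1B are near-identical copies, and HSPE1, HSPA8 and HSPD1 have processed copies elsewhere in the genome, so reads may have been divided among them. Of the higher members 4 of 14 held the heat shock element core (GAANNTTC or TTCNNGAA) in their promoter window, against 7 of 14 members that were not called and 13.7% of all windows.

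The proteasome, which degrades ubiquitin-tagged protein, lay above the TE level in all 31 subunits tested by the fitted difference, with a median of 0.49, though 9 passed the thresholds. PSMA4 stood at 426, 442 and 419 TPM with SE, 256, 257 and 252 TPM with TE and 169, 176 and 184 TPM in untreated cells, and PSMD1 at 104.2, 112 and 109 TPM with SE, 65.6, 66.4 and 65.2 TPM with TE and 41.8, 40.2 and 40.4 TPM in untreated cells. The groups did not overlap in either gene, and the differences were 0.75 and 0.72. Since many subunits lay just below or just above the fold threshold, the count of calls depended on the scaling and on trend removal. It was 5 after median-ratio scaling, 2 after quantile normalisation and 4 with GC and length trends removed, while the median stayed at 0.42, 0.34 and 0.39.

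**Figure D1:**
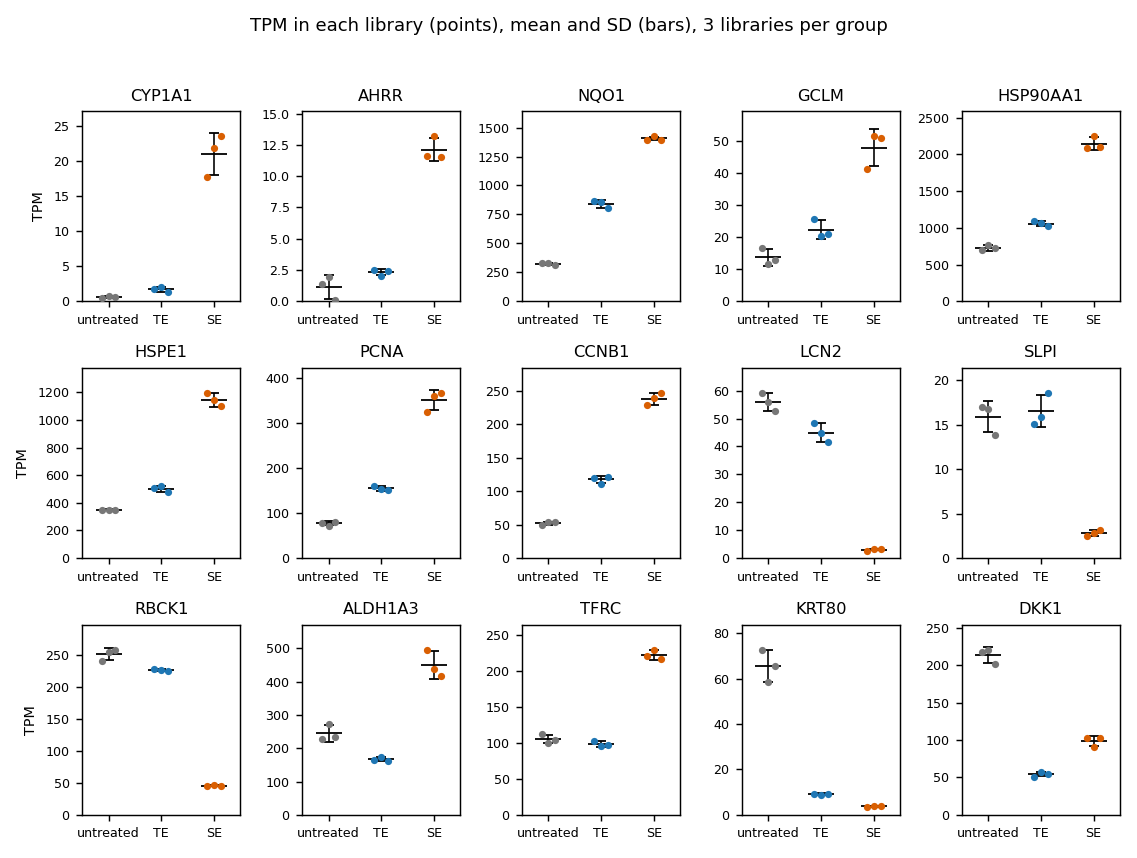
TPM of 15 genes in each untreated, TE and SE library (coloured points, linear y axis from 0), with the mean and standard deviation of the 3 libraries in black. CYP1A1 and AHRR are near the floor in all but the SE libraries, LCN2, SLPI and RBCK1 fall to low levels in the SE libraries alone among these groups, and ALDH1A3 has TE below and SE above the untreated level.

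ATF4 targets had the lowest median of the 36 lists in the main fit. The secreted defense list was lower still with 0.1 instead of 0.5 added to the TPM (-0.69). It was also lower over its 3 members with a mean of at least 5 TPM (-2.37). Of 25 genes of the ATF4 and amino acid stress list 12 were lower and none was higher with SE, at a median of -0.53. Against untreated cells the median was -0.57 with SE and 0.11 with TE. DDIT3 (ENSG00000175197, chr12:57516588-57521737, minus strand), which encodes the stress transcription factor CHOP, stood at 35.8, 42.1 and 45.8 TPM with SE, 193, 163 and 187 TPM with TE and 518, 427 and 489.5 TPM in untreated cells. The 3 groups did not overlap, and the difference between the extracts was -2.12 (standard error 0.11, adjusted p = 4.9e-08). TRIB3, a pseudokinase that CHOP induces (ENSG00000101255, chr20:362835-397559, plus strand), stood at 35.4, 42.5 and 46.8 TPM with SE and 144, 132 and 145 TPM with TE, just below the untreated 185, 149.8 and 177 TPM, a difference of -1.75 (standard error 0.10, adjusted p = 9.9e-08). PPP1R15A, the phosphatase subunit that restarts translation, stood at 27.2, 21.9 and 24.4 TPM with SE, 66.9, 68.8 and 67.9 TPM with TE and 115, 142 and 129 TPM in untreated cells (-1.46 between the extracts).

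Other ATF4 targets lay near or above the untreated level with TE and below it with SE. DDIT4, an inhibitor of mTOR signalling, stood at 93.9, 107 and 113 TPM with SE, 258, 247 and 264 TPM with TE and 245, 215 and 239.9 TPM without treatment, so that every untreated library fell between the extracts (-1.29, standard error 0.07, adjusted p = 7.7e-08). CHAC1, which degrades glutathione, had the same order, with 18.1, 14.6 and 18.3 TPM with SE, 36.4, 46.04 and 37.9 TPM with TE and 25.8, 22.5 and 25.3 TPM in untreated cells (-1.22). ASNS, asparagine synthetase, stood at 180.1, 191 and 199.9 TPM with SE and 382, 374 and 356 TPM with TE (-0.96), and VEGFA, a growth factor for vessels, at 49.7, 46.2 and 46.6 TPM with SE and 84.1, 90.5 and 81.8 TPM with TE (-0.84). ATF4 itself was not called, at -0.22 (95% interval -0.32 to -0.13), and the serine synthesis enzymes PHGDH (-0.53) and PSAT1 (-0.53) stayed below the fold threshold.

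Enzymes that charge transfer RNAs divided into those that were lower and those that were not. Of 20 cytosolic synthetases 5 were lower and none was higher with SE, and the list median was 0.02. AARS1, for alanine (ENSG00000090861, chr16:70251983-70289707, minus strand), stood at 134, 121 and 122 TPM with SE, 263, 265 and 264 TPM with TE and 324, 355 and 332 TPM in untreated cells, a difference of -1.07 (standard error 0.05, adjusted p = 2.9e-08). SARS1, for serine, differed by -0.93, WARS1, for tryptophan, by -0.81, CARS1, for cysteine, by -0.71 and MARS1, for methionine, by -0.59. WARS1 stood at 99.2, 99.8 and 87.1 TPM with SE and 169, 174 and 160.1 TPM with TE, on either side of the untreated 122, 134 and 125 TPM. At the other end RARS1, for arginine, differed by 0.55 and HARS1, for histidine, by 0.49, neither of them called.

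The sequences before CHAC1, ASNS and AARS1 are shown because they hold the core of the C/EBP-ATF response element, TGATGNAA on either strand, which binds ATF4 with its C/EBP partners; this motif was chosen after the values were seen. They are RefSeq sequences on GRCh38.p14 as above, with the core in capitals, read on the other strand in CHAC1 and AARS1.
CHAC1 (chr15:40953221-40953470, plus strand): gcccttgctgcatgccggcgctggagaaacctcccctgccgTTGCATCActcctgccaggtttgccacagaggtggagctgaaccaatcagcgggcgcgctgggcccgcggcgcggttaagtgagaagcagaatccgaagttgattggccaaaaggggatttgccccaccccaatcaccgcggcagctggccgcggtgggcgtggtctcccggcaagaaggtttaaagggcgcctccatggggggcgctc
ASNS (chr7:97872409-97872658, minus strand): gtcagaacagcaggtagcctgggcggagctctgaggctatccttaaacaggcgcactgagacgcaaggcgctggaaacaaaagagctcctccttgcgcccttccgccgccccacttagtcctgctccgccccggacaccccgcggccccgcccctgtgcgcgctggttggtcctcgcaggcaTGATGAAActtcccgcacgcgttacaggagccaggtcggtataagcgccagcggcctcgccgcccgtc
AARS1 (chr16:70289507-70289756, minus strand): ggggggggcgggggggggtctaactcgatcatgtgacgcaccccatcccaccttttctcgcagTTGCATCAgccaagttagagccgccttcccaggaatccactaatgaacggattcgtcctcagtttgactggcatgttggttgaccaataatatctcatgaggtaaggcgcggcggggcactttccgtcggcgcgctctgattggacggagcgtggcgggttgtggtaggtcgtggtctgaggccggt
The core begins 209, 68 and 187 bases before the start. In the full windows it was found in 3 of 10 lower ATF4 targets and in 3 of 5 lower synthetases (AARS1, CARS1 and MARS1), but also in 3 of 11 synthetases that were not called (IARS1, NARS1 and TARS1), against 3.67% of all windows. NARS1 and TARS1 differed between the extracts by 0.10 and 0.06.

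In the ER the picture was mixed. Of 29 genes for ER chaperones and folding, 7 were lower and 1 was higher with SE, with a median of -0.09. HSPA5, the HSP70 of the ER known as BiP (ENSG00000044574, chr9:125234853-125241382, minus strand), stood at 405, 414 and 396 TPM with SE, 839, 756 and 811 TPM with TE and 1939.9, 1599.8 and 1699 TPM in untreated cells, a difference of -0.98 (standard error 0.06, adjusted p = 2.4e-07). HYOU1, its exchange factor, stood at 90.4, 88.5 and 80.98 TPM with SE and 153, 163 and 162 TPM with TE (-0.88). The sensors ERN1, which encodes IRE1, and ATF6 were lower as well (-0.83 and -0.63), as were SEL1L (-0.81), CREB3L2 (-0.72) and DNAJB9 (-0.63). CALR, the calcium-binding lectin chaperone calreticulin (ENSG00000179218, chr19:12938578-12944489, plus strand), went the other way, with 638, 605 and 620.0 TPM with SE, 388, 393 and 376 TPM with TE and 536, 469.8 and 463 TPM in untreated cells (0.69, standard error 0.07, adjusted p = 7.0e-06), so that the untreated libraries lay between. HSP90B1 (0.24, 95% interval 0.09 to 0.39) and PDIA4 (0.21, 0.10 to 0.32), chaperones usually induced together with HSPA5, were not called.

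HSPA5 and CALR are shown because both hold the ER stress element and they moved in opposite directions. The element is CCAAT followed 9 bases later by CCACG on either strand, which ATF6 binds with NF-Y. This pair was picked with its values known, and a part of the element in either difference was not tested.
HSPA5 (chr9:125241344-125241593, minus strand): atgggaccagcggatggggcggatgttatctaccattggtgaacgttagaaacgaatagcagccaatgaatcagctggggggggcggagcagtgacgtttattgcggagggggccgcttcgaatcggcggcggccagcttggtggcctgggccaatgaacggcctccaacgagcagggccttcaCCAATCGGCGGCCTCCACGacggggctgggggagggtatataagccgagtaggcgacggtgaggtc
CALR (chr19:12938359-12938608, plus strand): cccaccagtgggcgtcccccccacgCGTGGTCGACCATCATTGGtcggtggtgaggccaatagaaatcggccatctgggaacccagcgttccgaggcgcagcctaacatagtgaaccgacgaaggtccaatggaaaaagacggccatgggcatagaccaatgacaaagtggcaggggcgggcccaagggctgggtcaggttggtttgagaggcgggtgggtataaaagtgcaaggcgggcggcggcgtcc
The element begins 66 bases before the start of HSPA5 and 225 before that of CALR, in opposite orientations. It is rare, in 0.0806% of all windows, and was found in HSPA5 alone of the 7 lower members, in CALR, and in 5 of 19 members that were not called.

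**Figure D2:**
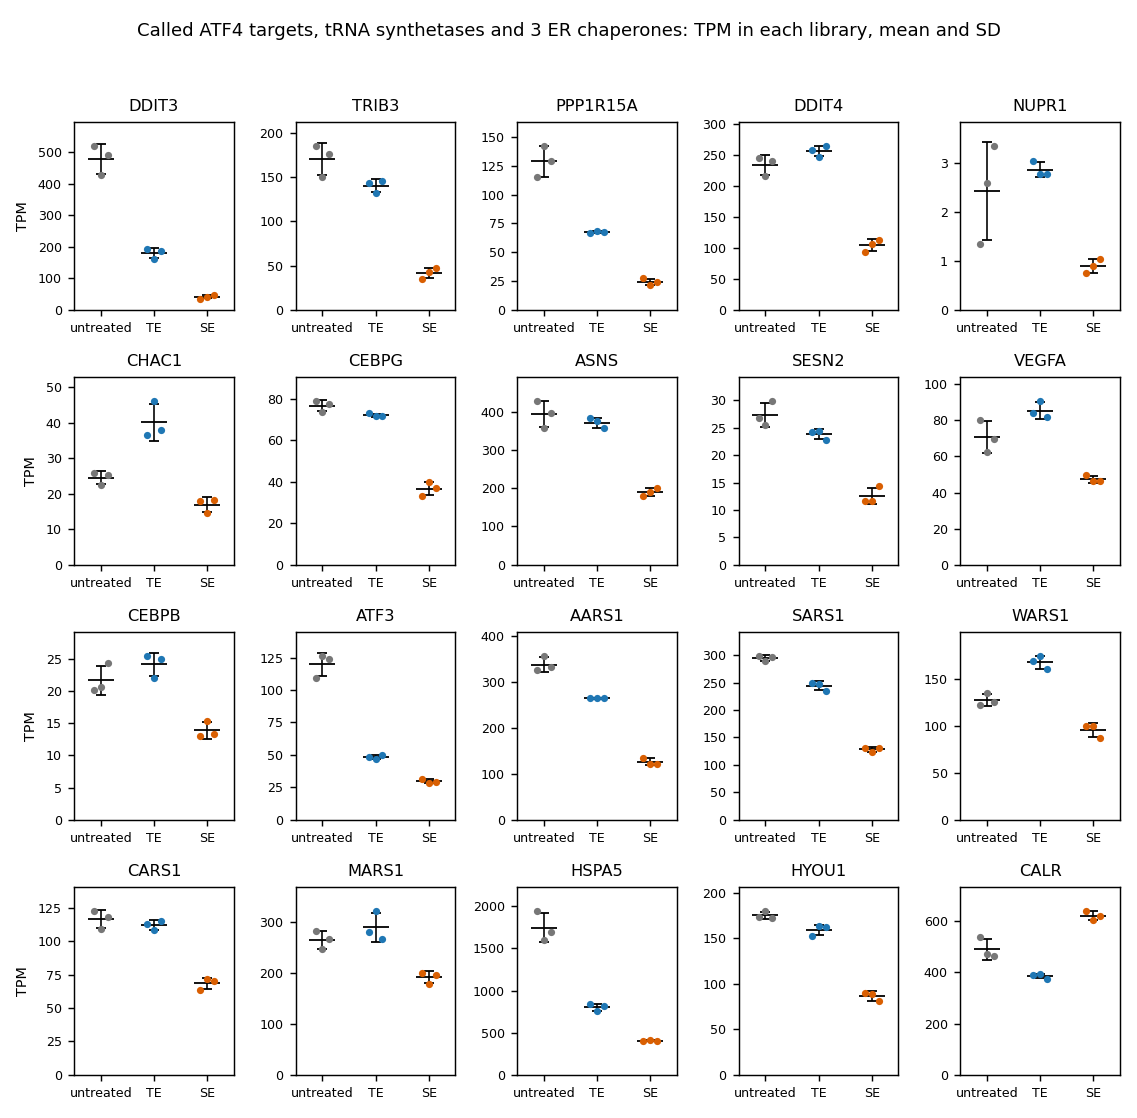
TPM in each untreated, TE and SE library (points, linear y axis from 0), with mean and standard deviation, for the 12 ATF4 targets and the 5 tRNA synthetases that were lower with SE and for HSPA5, HYOU1 and CALR. The SE libraries are lowest in every panel but CALR, and the TE libraries lie above the untreated level in DDIT4, CHAC1, VEGFA and WARS1.

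Cell cycle genes formed the widest difference by number. Of 58 DNA replication genes 42 were higher and none was lower with SE than with TE, at a median of 0.72, and all 58 differences were positive. Of 61 genes for G2/M and mitosis 45 were higher and none was lower, at a median of 0.69. Against untreated cells the replication median was 1.66 with SE and 0.88 with TE, and the mitosis median was 1.31 and 0.64. In these bulk libraries more cells in a phase of the cycle and more RNA per cell cannot be told apart. After quantile normalisation 35 replication genes and 32 mitosis genes were still higher, and none was lower.

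PCLAF, a partner of the sliding clamp, was the replication gene with the largest difference (75.5, 138 and 142 TPM with SE, 37.96, 30.7 and 39.6 TPM with TE and 15.7, 8.93 and 12.1 TPM without treatment, log2 fold change 1.65, standard error 0.24, adjusted p = 1.8e-04). Its first SE library was well below the other SE libraries and still above all TE libraries. The clamp itself, PCNA, stood at 325, 361 and 367 TPM with SE, 159.8, 154 and 150.1 TPM with TE and 78.7, 71.8 and 80.3 TPM in untreated cells (1.18). The ribonucleotide reductase subunits RRM1 and RRM2 differed by 1.05 and 1.05. The helicase subunit MCM4 (1.09), the origin protein ORC1 (1.03) and the clamp loader RFC5 (0.92) were among the others. The groups of PCNA, RRM1, ORC1 and RFC5 did not overlap, with TE between SE and untreated cells.

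Among mitotic genes CCNB1, the cyclin of mitotic entry, stood at 229, 239 and 247 TPM with SE, 119.9, 111 and 122 TPM with TE and 49.1, 53.6 and 53.4 TPM in untreated cells, a difference of 1.02 (standard error 0.06, adjusted p = 7.7e-08). Its kinase CDK1 differed by 0.99, the topoisomerase TOP2A by 1.11 and the securin PTTG1 by 0.87. STMN1, the microtubule regulator stathmin, stood at 558, 519 and 530.0 TPM with SE and 310.3, 332 and 298 TPM with TE (0.77). AURKB, an Aurora kinase of the chromosomal passenger complex, stood at 95.9, 80.5 and 92.7 against 63.2, 68.8 and 66.2 TPM, with a difference of 0.44 (adjusted p = 0.0033 in limma) that stayed below the fold threshold. ESCO2, the cohesin acetyltransferase of S phase (1.63), and ERCC6L, a helicase of mitotic DNA bridges (1.33), were among the 12 largest increases of all genes. None of 7 replication-dependent histone genes was called in limma (median 0.25), nor was any at an unadjusted p under 0.05. The library protocol captured poly(A) RNA, which most histone transcripts lack.

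CDK6, a cyclin D kinase of early G1, lay on either side of the untreated level, with 22.4, 23.1 and 21.5 TPM with SE, 11.5, 10.4 and 10.5 TPM with TE and 15.6, 14.3 and 14.7 TPM in untreated cells (1.02, standard error 0.09, adjusted p = 2.3e-06). The proto-oncogene MYC stood at 206, 213 and 194 TPM with SE and 223, 246 and 214 TPM with TE, ranges that just fail to meet, with a difference of -0.15 (95% interval -0.28 to -0.03), below 365, 363 and 363 TPM in untreated cells. Of 26 p53-induced genes 5 were higher and 3 lower with SE, at a median of 0.17. MDM2, the ligase that limits p53, stood at 106, 100.3 and 78.5 against 52.7, 47.8 and 57.2 TPM (0.84), and the death receptor FAS differed by 0.82. Those that were lower, GADD45A (-1.02), SESN2 (-0.91) and TNFRSF10B (-0.76), are also known as targets of ATF4 or CHOP, and CDKN1A, the cell cycle inhibitor p21, differed by 0.00 (95% interval -0.15 to 0.16).

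**Figure D3:**
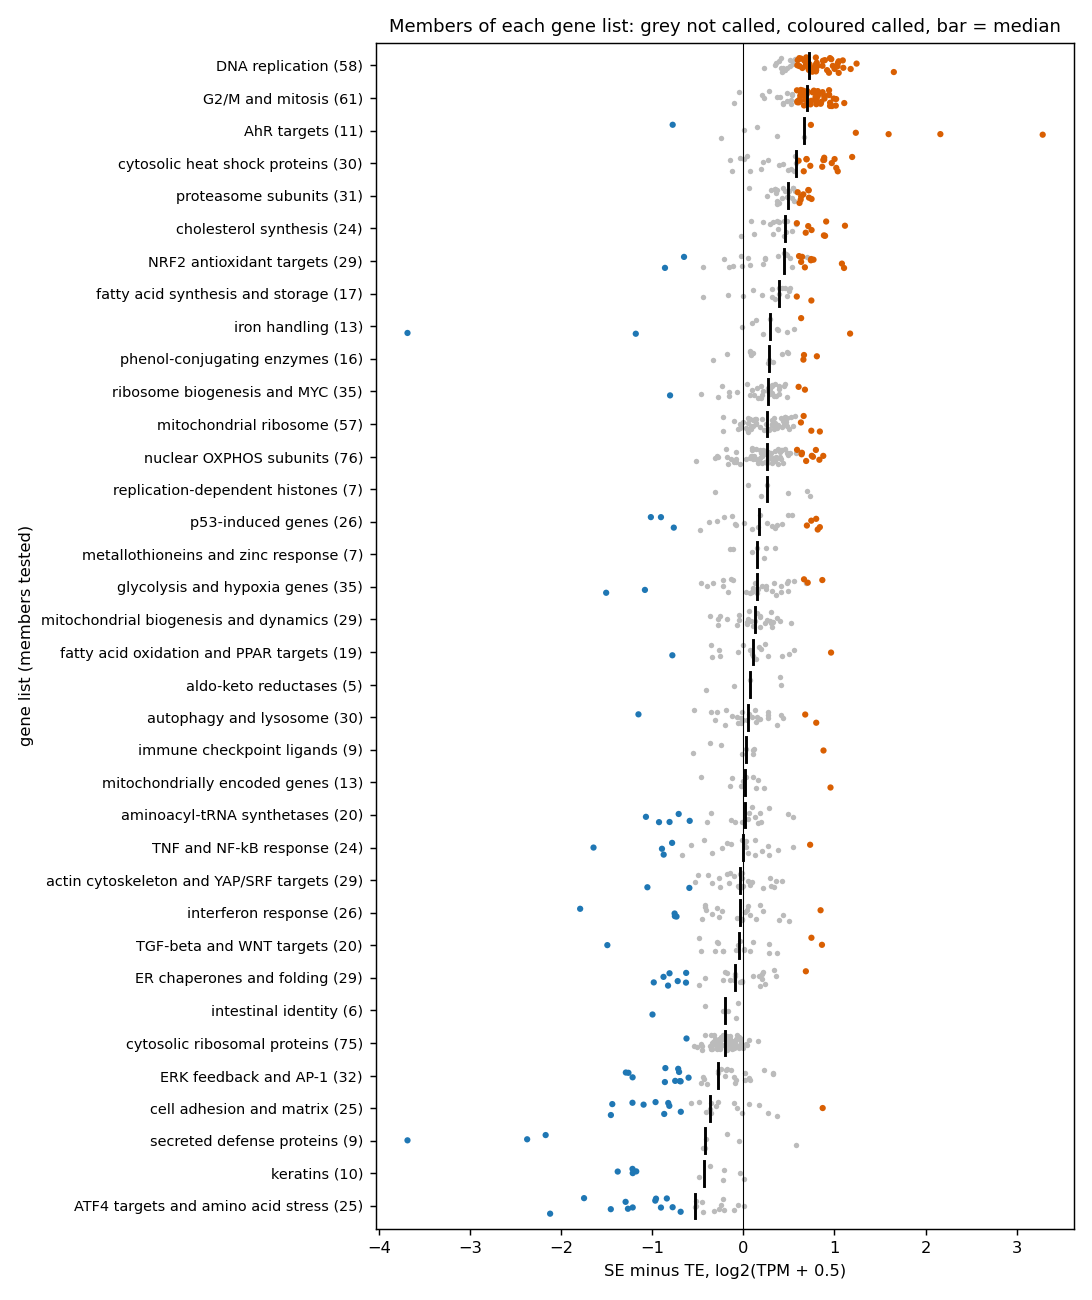
Difference SE minus TE of log2(TPM + 0.5) for every tested member of the 36 gene lists, sorted by median (black bar); members not called are grey, and called members are orange (higher with SE) or blue (lower). DNA replication and mitosis lie to the right with nearly all members, whereas the AhR, iron and secreted defense lists hold a few members far from the rest.

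The largest decrease of all named genes was in a secreted protein. LCN2, the iron-siderophore binding lipocalin of epithelia (ENSG00000148346, chr9:128149071-128153453, plus strand), stood at 2.66, 3.15 and 3.28 TPM with SE, 48.4, 44.8 and 41.7 TPM with TE and 59.2, 56.04 and 52.6 TPM in untreated cells, a difference of -3.69 (standard error 0.10, adjusted p = 7.4e-11). SLPI, a protease inhibitor of mucosal secretions, stood at 2.42, 2.78 and 3.14 TPM with SE, 15.1, 15.9 and 18.6 TPM with TE and 17.03, 16.8 and 13.8 TPM in untreated cells (-2.37, standard error 0.14, adjusted p = 1.2e-07). SERPINA3, a serpin of the acute phase, stood at 0.63, 0.28 and 0.58 TPM with SE, 4.14, 4.33 and 3.38 TPM with TE and 2.45, 2.39 and 2.86 TPM in untreated cells (-2.17). In LCN2 and SLPI the TE libraries stayed close to the untreated level while all SE libraries were below 4 TPM. These were 3 of 9 secreted defense genes tested, and the other members were not called, among them complement C3 (-0.18, 95% interval -1.10 to 0.75) and CFB (-0.45, -0.94 to 0.05).

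Several genes outside the pathways above were far lower with SE than with TE. RBCK1, a subunit of the complex that builds linear ubiquitin chains in NF-kB signalling (ENSG00000125826, chr20:407498-432139, plus strand), stood at 45.7, 47.4 and 44.5 TPM with SE, 228, 226 and 225 TPM with TE and 241, 256 and 258 TPM in untreated cells (-2.29, standard error 0.07, adjusted p = 3.4e-10). It lies close to TRIB3 on chromosome 20. IL20RB, a cytokine receptor subunit, stood at 5.25, 2.93 and 3.74 TPM with SE against 20.97, 20.4 and 22.2 TPM with TE and 22.8 ± 2.41 TPM (mean and SD, n = 3) in untreated cells (-2.31). TNFRSF6B, a soluble decoy receptor for FAS ligand, stood at 12.98, 8.84 and 7.56 against 58.6, 70.8 and 45.6 TPM (-2.53); it overlaps the helicase gene RTEL1, and reads of the overlap cannot be assigned with certainty. PRPH, an intermediate filament protein of neurons, stood at 1.67, 2.95 and 3.10 TPM with SE and 16.2, 17.3 and 13.5 TPM with TE (-2.43), and SPX, a secreted peptide, at 0.30, 0.45 and 1.06 against 6.43, 8.19 and 6.84 TPM (-2.85). SNHG32, a host gene of small nucleolar RNAs, stood at 127, 159 and 148 TPM with SE and 619, 583 and 649 TPM with TE (-2.10). Among the smallest transcripts SNORD17, a small nucleolar RNA, stood at 4.64, 14.7 and 2.52 TPM with SE and 0, 1.43 and 0 TPM with TE (2.98), short RNA that a poly(A) library recovers poorly, and the call was lost without the second SE library, at 2.33. WFDC21P, a transcribed pseudogene, differed by -2.56 but its TE libraries were far apart, at 3.77, 3.16 and 23.1 TPM.

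Of 24 TNF and NF-kB response genes 4 were lower and 1 was higher with SE, beside 3.66% and 4.7% of all genes. Their median was 0.00 after rounding. PLAU, the urokinase protease, stood at 36.8, 31.3 and 39.1 TPM with SE, 109, 111 and 117 TPM with TE and 235, 252 and 228 TPM in untreated cells (-1.65, standard error 0.09, adjusted p = 6.7e-08), and its receptor PLAUR at 23.5, 20.7 and 26.9 against 46.3, 44.3 and 42.2 TPM (-0.89). BIRC3, an inhibitor of apoptosis, was higher with SE than with TE (4.89 ± 0.691 against 2.73 ± 0.210 TPM, mean and SD of 3 libraries, log2 fold change 0.73), though both stood below the untreated 8.90, 9.70 and 7.14 TPM. Classical targets were not called, with NFKBIA at 0.20 (95% interval -0.01 to 0.41), TNFAIP3 at 0.13 (-0.49 to 0.75) and CXCL8 at 0.13 (-0.40 to 0.65). Of 26 interferon genes, with a median of -0.04, 4 were lower, led by the exonuclease ISG20 (-1.79), and 1, OAS3, which senses double-stranded RNA, was higher (0.85).

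Targets of the ERK pathway were lower with SE in 11 of 32 genes and higher in none, at a median of -0.28. DUSP5, a phosphatase that ERK induces against itself, stood at 38.6, 44.3 and 45.3 TPM with SE, 108, 99.1 and 102 TPM with TE and 642, 528 and 583 TPM in untreated cells (-1.26, standard error 0.09, adjusted p = 7.3e-07). The AP-1 subunit JUN stood at 4.66, 4.25 and 5.06 TPM with SE, 11.6, 13.2 and 11.5 TPM with TE and 21.03, 23.9 and 24.4 TPM in untreated cells (-1.29), and JUND and JUNB differed by -1.22 and -0.75. AREG, a ligand of the EGF receptor, stood at 357, 331 and 329.6 TPM with SE against 609, 665 and 574 TPM with TE, the latter overlapping the untreated 628, 754 and 647 TPM (-0.86). The feedback inhibitor SPRY4 differed by -0.71 and the phosphatase DUSP6 by -0.72, with the untreated libraries of DUSP6 between the extracts.

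Of 10 keratins, the filament proteins of epithelia, 4 were lower and none was higher, at a median of -0.43. KRT80, a keratin of differentiating epithelia, stood at 3.55, 3.81 and 3.93 TPM with SE, 9.33, 8.72 and 9.35 TPM with TE and 72.8, 58.5 and 65.5 TPM in untreated cells (-1.18, standard error 0.09, adjusted p = 8.3e-07), and KRT7 at 18.4, 14.7 and 18.01 TPM with SE, 42.9, 38.03 and 39.2 TPM with TE and 139, 156 and 139 TPM in untreated cells (-1.22). KRT81 and KRT86, which were also lower, are related copies that overlap each other, so their reads may be mixed. The simple-epithelium keratins KRT8 (-0.23, 95% interval -0.36 to -0.10) and KRT19 (0.01, -0.12 to 0.14) were not called. KRT18, another of them and also not called, stood at 521 to 584 TPM with SE and 762.5 to 782 TPM with TE, without overlap. The epithelial marker sums given above fall with these genes. Of 25 adhesion and matrix genes 9 were lower, at a median of -0.36. ITGA3, an integrin chain for laminin, stood at 102, 81.9 and 99.02 TPM with SE and 253, 271 and 252 TPM with TE (-1.45, standard error 0.10, adjusted p = 5.3e-07), and the laminin chains LAMB3 and LAMA5 differed by -1.10 and -0.81. Tight junction claudins CLDN3, CLDN4 and CLDN7 differed by -1.44, -0.87 and -0.82; CLDN7 stood at 131, 132 and 144 TPM with SE against 239, 243 and 237 TPM with TE and 221, 241 and 256 TPM without treatment. The 1 higher member, CEACAM1, stood at 1.73, 0.90 and 1.05 TPM with SE and 0.34, 0.65 and 0.32 TPM with TE (0.87) and lost its call in most alternatives; it was also the 1 called gene of 9 immune checkpoint ligands.

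Actin and YAP/SRF targets differed little between the extracts although they were far below the untreated level with each. Their median was -0.04 between the extracts, against -0.93 with SE and -0.88 with TE relative to untreated cells, and 2 of 29 were lower with SE, of which 1 remained without the first SE or the second TE library. AXL, a receptor tyrosine kinase, was 1 of them, at 17.6, 15.9 and 16.3 TPM with SE, 34.4, 34.8 and 35.7 TPM with TE and 76.8, 74.8 and 79.5 TPM without treatment (-1.05). CCN1 and CCN2, secreted targets of YAP, differed by -0.26 (95% interval -0.47 to -0.05) and -0.15 (-0.51 to 0.22). The WNT inhibitor DKK1 was higher with SE (103, 91.1 and 103 TPM) than with TE (51.1, 56.6 and 54.5 TPM), both below the untreated 218, 220.4 and 202 TPM (0.86), and the WNT feedback gene AXIN2 was higher as well (0.75). Of 20 TGF-beta and WNT targets 2 were higher and 1 was lower (median -0.05), beside 4.7% and 3.66% of all genes. Of 6 genes of intestinal identity KLF4, a factor of differentiated epithelium, was lower (-1.01), while CDX2 and HNF4A were not called (-0.08 and -0.06, 95% intervals -0.54 to 0.37 and -0.47 to 0.35).

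**Figure D4:**
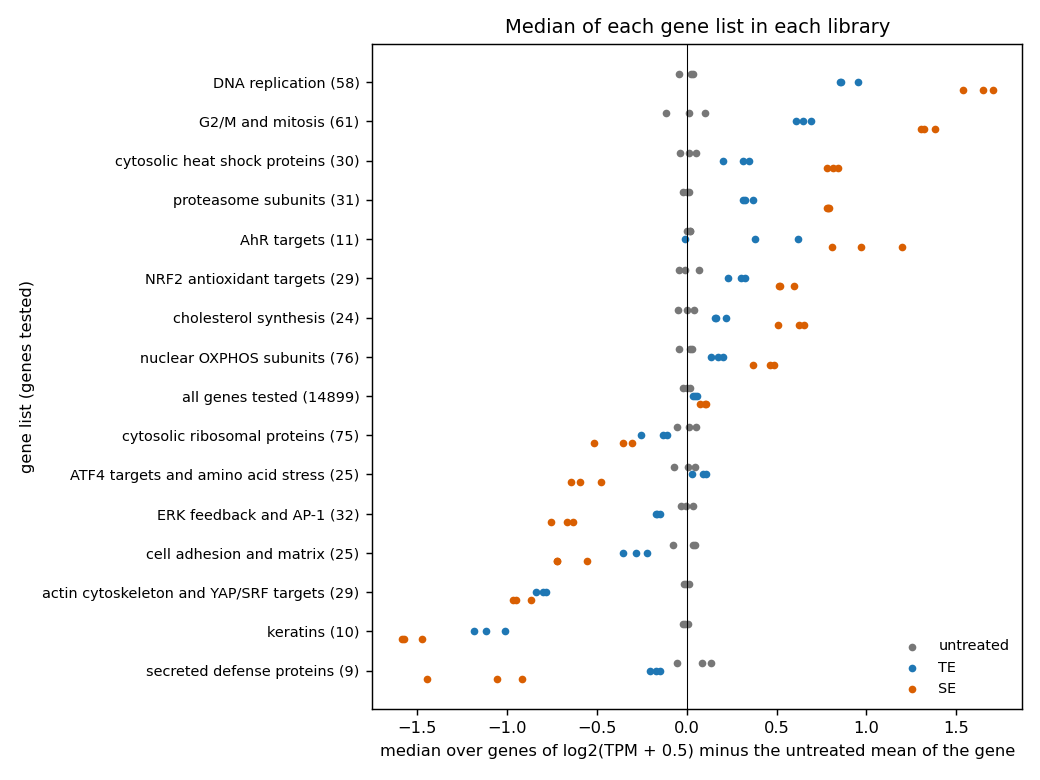
Median over the tested genes of each list of log2(TPM + 0.5) minus the untreated mean of the same gene, 1 point for each untreated, TE and SE library. SE and TE points are apart in every list drawn, but the lists drawn are a selection. Among lists not drawn the points overlap in several, such as ER chaperones, TNF and NF-kB response, and mitochondrially encoded genes. Replication genes reach 1.54 to 1.70 with SE and 0.86 to 0.96 with TE. ATF4 targets are at or just above 0 with TE and at -0.65 to -0.48 with SE. All genes tested are also apart, at 0.07 to 0.11 with SE and 0.04 to 0.06 with TE.

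Of 24 cholesterol genes 8 were higher and none was lower, at a median of 0.46, and quantile normalisation left 5. ACAT2, which starts the pathway from acetyl-CoA, stood at 50.5, 53.2 and 53.2 TPM with SE, 24.2, 24.8 and 22.6 TPM with TE and 14.4, 15.7 and 17.2 TPM in untreated cells (1.12, standard error 0.08, adjusted p = 5.8e-07). IDI1, an enzyme further along, differed by 0.91, and INSIG1, the sterol sensor, by 0.88. Of 17 genes of fatty acid synthesis and storage 2 were higher, FADS2, a desaturase (0.75), and ACSL3 (0.59), which lost its call in several alternatives, among them without the first or second SE library and without the first or the third TE library. Of 19 genes of fatty acid oxidation and PPAR targets 1 was higher and 1 lower, beside 4.7% and 3.66% of all genes.

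FABP5, a fatty acid carrier, stood at 622, 599 and 585 TPM with SE against 306, 327 and 294 TPM with TE (0.96), and ECI1, an enzyme of unsaturated fatty acid oxidation, was lower at 42.1, 59.97 and 60.2 against 98.05, 75.6 and 105 TPM (-0.78). ALDH1A3, which makes retinoic acid, stood at 496, 437 and 416 TPM with SE, 165, 175 and 162 TPM with TE and 227, 273 and 234 TPM in untreated cells (1.42, standard error 0.08, adjusted p = 1.1e-07), so that the extracts lay on opposite sides of the untreated level.

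Beyond its RNA data, the study followed mitochondria through proteins, ATP and dyes, in treated against untreated cells. Here RNA was compared between SE and TE, which is a different measure and a different contrast. No tested gene that the study named for mitochondria passed both thresholds. Of 30 genes of mitochondrial biogenesis and dynamics 29 passed the filter on low values. None of the 29 was called in limma between SE and TE at these thresholds, and the median was 0.13. Without the fold threshold, at an adjusted p under 0.05 in limma, 10 members were higher and none was lower. Over all 14899 genes these counts were 2563 and 1376. At an unadjusted p under 0.05 in limma 12 members were higher and 4 lower. TFAM, the packaging factor of mitochondrial DNA, stood at 51.8, 54.1 and 53.1 TPM with SE, 34.3, 39.9 and 36.7 TPM with TE and 27.00, 25.6 and 30.4 TPM in untreated cells. Its difference of 0.52 had an adjusted p of 0.0017 and stayed below the fold threshold. The differences of the fusion genes MFN1 and MFN2 were 0.11 (95% interval -0.05 to 0.26) and 0.04 (-0.11 to 0.19), that of the fission factor MFF was 0.18 (0.07 to 0.30), that of the import receptor TOMM20 was -0.07 (-0.24 to 0.10) and that of the factor FOXJ3 was 0.04 (-0.09 to 0.16). The signs of MFN2 and FOXJ3 turned with median-ratio scaling and with quantile normalisation. Those of MFN1, MFF and FOXJ3 turned with GC and length trends removed. PPARG, a nuclear receptor of lipid metabolism, stood at 20.4, 21.9 and 20.3 TPM with SE and 25.6, 23.5 and 26.1 TPM with TE (-0.26, -0.45 to -0.06), both below the untreated 35.1, 36.1 and 40.01 TPM.

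Of 76 nuclear subunits of oxidative phosphorylation (OXPHOS) 9 were higher and none was lower with SE, at a median of 0.26 against 0.43 with SE and 0.17 with TE relative to untreated cells. The count was 14 without the first SE library, and 6 after median-ratio scaling and 5 after quantile normalisation, the latter with 1 subunit lower. ATP5MC1, a subunit of the ring of ATP synthase, stood at 579, 594 and 549 TPM with SE, 319, 292 and 327 TPM with TE and 258, 256 and 236 TPM in untreated cells (0.88, standard error 0.07, adjusted p = 1.5e-06). NDUFB3 and NDUFS5 of complex I differed by 0.83 and 0.75. Other subunits of the chain had differences of 0.41 (ATP5F1A, 95% interval 0.26 to 0.56), 0.38 (NDUFB8, 0.28 to 0.49), 0.22 (UQCRC2, 0.06 to 0.37) and 0.17 (SDHB, 0.05 to 0.29), none past the fold threshold.

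Among 13 genes of the mitochondrial genome 1 was called, at a median of 0.02 that changed sign with scaling. MT-ND6, the only messenger of the light strand, stood at 1380.2, 1323 and 1404 TPM with SE, 693, 671 and 756 TPM with TE and 485, 467 and 502 TPM in untreated cells (0.95, standard error 0.09, adjusted p = 3.9e-06); the library kit keeps the strand, but the sources used here do not state whether the quantification used it. MT-CO2 overlapped between the extracts (-0.02, 95% interval -0.23 to 0.19). Of 57 mitochondrial ribosome genes 4 were higher, beside 4.7% of all genes, at a median of 0.26, and 2 were after quantile normalisation. Without the fold threshold 27 were higher and 1 lower, beside 2563 and 1376 of all 14899 genes. Of 75 cytosolic ribosomal proteins 1, RPL28 (-0.63), was lower, and the median was -0.20. Without the fold threshold 36 of the 75 were lower and none was higher. The share of all TPM that these 75 genes took was 19.3%, 21.2% and 21.97% with SE, 22.7%, 24.7% and 25.004% with TE, and 28.6%, 26.1% and 27.4% without treatment. The call of RPL28 was lost without the second SE library (-0.54) and without the second TE library (-0.58). With the fold threshold kept, the number of lower members was 0 without the second SE library, 2 without the second TE library and 3 without SE library 3. TPM are shares of a library, and the part of these shares in the other differences was not tested beyond the scalings named.

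Of 35 glycolysis and hypoxia genes 3 were higher and 2 lower with SE (median 0.15), beside 4.7% and 3.66% of all genes. Of 13 iron genes 2 were higher and 2 lower (median 0.29). GAPDH stood at 4131, 4409 and 4683 TPM with SE and 2403, 2362 and 2479 TPM with TE (0.87, standard error 0.06, adjusted p = 4.9e-07), and LDHA and PGAM1 differed by 0.71 and 0.67. ARRDC4, a sensor of glucose flux, was at 3.07, 3.21 and 3.12 TPM with SE, 8.31, 10.7 and 10.6 TPM with TE and 0.60, 0.98 and 1.23 TPM in untreated cells, so TE stood highest (-1.51), and the hypoxia gene NDRG1 was lower with SE (-1.08). TFRC, the transferrin receptor that brings iron into dividing cells, stood at 219.9, 229 and 216 TPM with SE, while 103, 95.6 and 96.2 TPM with TE were close to the untreated 112, 100.3 and 104.5 TPM (1.17, standard error 0.06, adjusted p = 6.7e-08). The ferritin chains FTH1 and FTL were not called (-0.02 and 0.37, 95% intervals -0.16 to 0.13 and 0.23 to 0.52). The lower iron genes were LCN2 and transferrin, TF (-1.18). Of 30 autophagy and lysosome genes 2 were higher and 1 lower. MAP1LC3B, which coats autophagosomes, was lower with SE (47.1, 57.98 and 55.04 against 127, 108 and 122 TPM, -1.15), while the lysosomal enzyme GLA was higher (0.80). Among 35 genes of ribosome biogenesis and MYC, NPM1, the nucleolar protein nucleophosmin (0.61, but 0.54 and not called after median-ratio scaling), and UTP20 (0.68) were higher and the MYC antagonist MXD1 (-0.81) was lower, at a median of 0.27. HAS3, a hyaluronan synthase, stood at 63.6, 71.6 and 70.4 TPM with SE, 23.9, 21.9 and 25.2 TPM with TE and 12.8, 13.4 and 15.2 TPM without treatment (1.52, standard error 0.08, adjusted p = 4.9e-08), and FGFBP1, a carrier of fibroblast growth factors, differed by 1.40. SPP1, the secreted phosphoprotein osteopontin, stood at 7.01, 5.80 and 4.73 TPM with SE, 0.97, 1.14 and 0.61 TPM with TE and 0, 0.48 and 0.43 TPM in untreated cells (2.18).

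For a small group of called genes the 3 untreated libraries lay wholly between the extracts, with SE above in 28 genes (0.188% of those tested) and TE above in 46 (0.309%). CLU, the secreted chaperone clusterin, stood at 314, 247 and 278 TPM with SE, 112, 145 and 129 TPM with TE and 171, 219 and 149 TPM in untreated cells (1.12, standard error 0.15, adjusted p = 9.3e-05). GTPBP2, a factor of ribosome rescue, had the opposite order, at 38.3, 36.9 and 36.8 TPM with SE, 99.2, 103.6 and 107 TPM with TE and 91.2, 92.1 and 88.5 TPM in untreated cells (-1.45, standard error 0.09, adjusted p = 1.4e-07). SERPINB8, an intracellular protease inhibitor, stood at 5.57, 5.87 and 4.60 TPM with SE, 16.9, 14.8 and 14.4 TPM with TE and 9.98, 13.2 and 11.7 TPM in untreated cells (-1.44). ALDH1A3, CDK6, CALR and COX7B belonged to those with SE above, and PRPH, SERPINA3, DDIT4, CHAC1, VEGFA, WARS1, DUSP6 and SLC3A2 to those with TE above.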

How the data were processed

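RNA of HCT116 cells was sequenced from stranded poly(A) libraries in 15 samples, 3 for each of 5 groups. The authors trimmed reads with Scythe and Sickle, aligned them with STAR to GRCh38 and quantified genes of Ensembl release 104 with RSEM, and deposited 1 table of TPM for all libraries. The sources used here give neither tool versions nor the strand setting of RSEM, so overlapping and antisense genes and near-identical copies are uncertain. TPM keep no read depth, so no precision from counting can be given. The authors' own comparisons of estimated counts were not used.

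Of 60664 genes, 60463 were named with GENCODE release 44. Those that reached 1 TPM in 3 or more libraries were fitted as log2(TPM + 0.5) in limma 3.58.1 (R 4.3.3) with a mean for each of the 5 groups and a variance trend, which left 10 residual degrees of freedom. Calls needed a p below 0.05 after Benjamini-Hochberg adjustment and a log2 fold change beyond 0.585 in either direction, and every adjusted p and 95% interval given comes from this fit. In a test on simulated data, 40 of 14899 genes were changed by each of several sizes on the log2 scale. Between SE and TE 72.5% of those raised by 0.7, 80% of those raised by 1 and 97.5% of those raised by 2 were called. Of those lowered by 1 and by 2, 90% and 97.5% were called. Calls among unchanged genes numbered 5. The simulated noise was independent between genes, so shifts shared across a library were not simulated.

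The titles call the samples biological replicates, and whether they came from separate cultures is not stated. The p-values therefore set each difference against the spread among libraries within all 5 groups, whatever the origin of that spread. The comparison, the 36 gene lists and the 5 marker lists were chosen with earlier results of these data known. Genes were named by a rule: the 12 largest differences in each direction among called genes without overlap and with a mean of at least 5 TPM, the 3 largest in each order among those with the untreated libraries between the extracts, up to 4 called members of each list with the smallest adjusted p and up to 2 against the majority of its calls, and the genes the study names. Other list members were named after their values were seen. Some genes that the rule named are not reported here. Promoter windows are those of RefSeq. Alternatives changed the pseudocount, the filter, the scaling, the libraries fitted, the test and the thresholds.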

Additional observations from a re-analysis of the deposited data

How the results depend on the processing

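Of 129 named genes called between SE and TE, 107 kept their call in every alternative that kept the thresholds and 0 changed sign. Most of these genes were picked by a large difference or a small adjusted p in the same data. The count therefore does not describe called genes in general. Leaving out 1 library at a time gave 1135 to 1265 genes called between SE and TE, 618 to 739 higher and 500 to 549 lower. The count followed the fold threshold. With a threshold of 1 on the log2 scale 260 genes were called (95 higher and 165 lower), with SE against untreated cells 1629 (962 and 667) and with TE 443 (220 and 223). Without a fold threshold these were 3939 (2563 and 1376), 7753 (4692 and 3061) and 5063 (3019 and 2044). With a mean of at least 5 TPM, which tests fewer genes, 1067 genes were lower with SE and 480 with TE than in untreated cells. Signs turned in genes that were not called, and the cause was not tested. The histone gene H1-2 gave -0.0067 with median-ratio scaling and -0.052 to 0.24 without single libraries, being negative without the second TE library or SE library 2 or 3. MFN2 gave -0.023 with median-ratio scaling, -0.068 with quantile normalisation and -0.040 to 0.092 without single libraries, negative without the second TE library. FOXJ3 gave -0.025 with median-ratio scaling, -0.021 with quantile normalisation and -0.079 with GC and length trends removed. AKR1A1 gave -0.057 with quantile normalisation, and MFN1 and MFF gave -0.039 and -0.011 with GC and length trends removed. MT-CO2 gave -0.12 to 0.062 without single libraries, positive without the second TE library or SE library 2 or 3. Depth limits could not be given from TPM.

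With the replicate number as a replicate block 1235 genes were called between SE and TE, 690 higher and 545 lower. Deviations of SE and TE libraries of the same number correlated at -0.21, 0.01 and -0.05 across genes, so the numbers were not treated as pairs.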

Other observations

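Host genes of small nucleolar RNAs, whose spliced RNA is made along with nucleolar RNAs held in their introns, were examined after SNHG32 was seen among the largest decreases. Of 27 tested, 24 had an SNHG symbol, and GAS5, ZFAS1 and EPB41L4A-AS1 were added by hand after values were seen. These added genes were all lower, which raised the count of lower genes and brought the median down. Among the 27, 7 were lower and 2 higher with SE than with TE, at a median of -0.14. Over all genes tested 3.66% were lower and 4.7% higher, at a median of 0.06. GAS5, a growth-arrest host gene, stood at 645, 803 and 767 TPM with SE, 2069, 1687 and 2165 TPM with TE and 2623, 2057 and 2424 TPM in untreated cells (log2 fold change -1.42, standard error 0.12, adjusted p = 1.8e-06 in limma). ZFAS1, the antisense partner of ZNFX1, stood at 253, 323 and 316 TPM with SE, 843, 666 and 861 TPM with TE and 1054, 831 and 1033 TPM in untreated cells (-1.41). In both genes the SE libraries were below all others of the 3 groups. EPB41L4A-AS1 differed by -1.27, SNHG29 by -0.73, SNHG5 by -0.62 and SNHG8 by -0.61, while SNHG4 (0.73) and SNHG21 (0.65) were higher. Of the 24 genes with an SNHG symbol 4 were lower and 18 were not called, at a median of 0.06. No test of the group was made, since it was chosen after its values were seen.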
